A study of Oryctolagus cuniculus with 8 samples.

Results

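The genes described here are the G protein-coupled receptors named GPR, P2RY, S1PR, LPAR, ADORA, ADRA or ADRB and PTGER, together with the regulators of G protein signalling named RGS. The rule picks them by these names alone, from gene entries whose name occurs once, and uses no measured value. The set itself was chosen with earlier results of these data known. The rule found 109 members among 20922 gene entries, of which 94 are receptors and 15 are RGS genes. The name GPR also covers a few membrane proteins that are not classical receptors, such as GPR89B, GPR137B, GPR155 and GPR180. Receptors of the same families that carry other names were not analysed here.

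The libraries came from limbal epithelial cells of the New Zealand white rabbit, which is albino. The limbus is the rim between cornea and conjunctiva where corneal epithelial stem cells reside. Cells stained with Hoechst 33342 were separated into a side population (SP), which exports the dye and stays dim, and the remaining non-side population (NSP), and an Ion Proton instrument was used to read total RNA from 4 samples of each. No treatment or genotype is named in the labels, the gates are not given, and nothing states that the samples are separate animals, so p-values measure only a spread among samples that may be technical. The libraries are numbered 1 to 4 within each group as names only, in the order of the table's columns, and a number links no SP library to an NSP library.

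A G protein-coupled receptor activates a G protein by making its alpha subunit exchange GDP for GTP. Gs raises and Gi lowers cyclic AMP, Gq activates phospholipase C beta, and the G12 family acts on the cytoskeleton. RGS proteins end the signal by speeding up the hydrolysis of GTP on alpha subunits, mainly those of the Gi and Gq classes. In ocular surface epithelium, purinergic, adrenergic and lysophospholipid receptors are known for roles in ion and fluid transport and in wound closure. In leukocytes and vessels, several other members guide cell movement.

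Exon reads ranged from 15553295 to 18931836 over the SP libraries and from 20445565 to 23529101 over the NSP libraries. Between 70 and 74 members had at least 1 read in an SP library, and between 56 and 67 in an NSP library. Levels are given as CPM, reads relative to a common scaled library total, with the mean ± SD over 4 libraries, and intervals and limits on read counts cover counting error only. A log2 fold change is that of SP over NSP and carries its standard error, and every adjusted p is from limma-voom with Benjamini-Hochberg adjustment over all 10012 tested genes, with 0.05 as the threshold. "Rose", "fell", "higher" and "lower" in a count stand for SP relative to NSP. The NSP libraries carried the labelled tissue's markers, with a summed level of 15 limbal and corneal epithelial markers between 38034 and 65109.8 CPM. In the SP libraries that sum was between 2802 and 9025 CPM, and all 15 markers were lower. Markers of other cell types were higher in SP, in 9 of 9 tested T and NK cell genes, 6 of 6 B and plasma cell genes, 9 of 9 endothelial genes, 6 of 8 myeloid genes, 8 of 8 melanocyte genes and 6 of 7 stromal and mural genes. Of the myeloid markers below the filter, C1QA and C1QB had 22 and 9 reads, all in NSP library 3, MRC1 had 7 reads, all in SP, and CD1A had none. In these bulk samples, fewer cells of a type and less RNA per cell cannot be told apart.

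Of the 109 members, 56 passed the filter on low counts and were tested. SP and NSP differed in 31 of these 56 members, or 55.4%, where 30.7% of all tested genes did. Higher in SP were 19 members, or 33.9% of those tested, beside 17.7% of all tested genes, and lower were 12, or 21.4%, beside 13% of all tested genes. The SP and NSP libraries did not overlap in 22 members that were higher and 9 that were lower in SP, while 18.8% and 14% of all tested genes separated in the same way. The median log2 fold change was 0.24 over the 56 members and 0.12 over all tested genes. Of the called members 61.3% were higher in SP, and 52.8% with either median-ratio or upper-quartile scaling, while of all called genes 57.7% were higher, 51.0% with median-ratio and 46.9% with upper-quartile scaling. A member that is near 0 in NSP, such as GPR15, passed the filter only through its SP libraries and had to differ. The same holds in the other direction for a member near 0 in SP, such as RGS5, which needed its NSP libraries to pass. These counts, higher and lower alike, therefore describe the tested members and not the family. The receptors (16 higher and 9 lower of 47 tested) and the RGS genes (3 higher and 3 lower of 9 tested) both held changes in either direction, as the plot of fold changes by family shows.

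**Figure D1:**
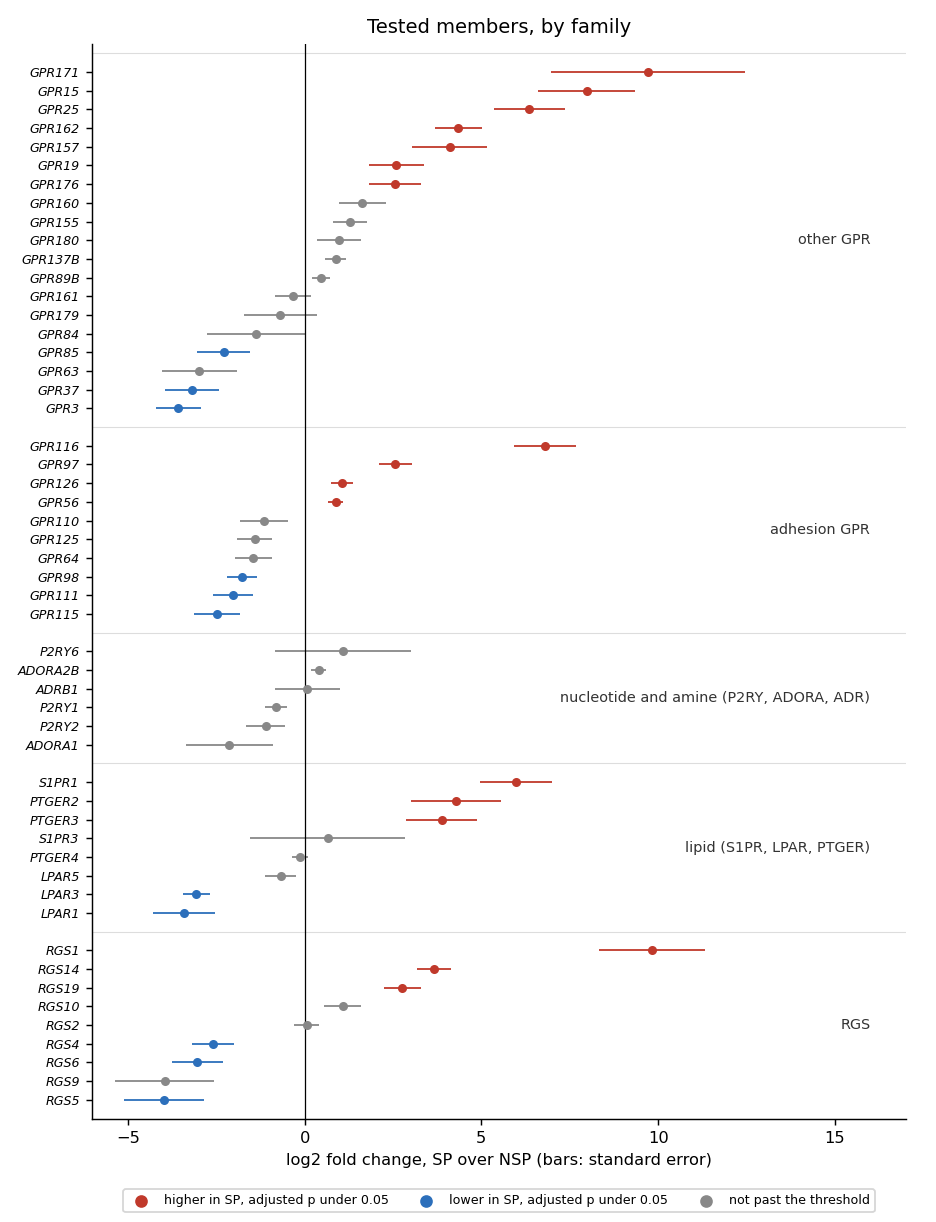
Log2 fold change, SP over NSP, of the tested members named here (x axis), grouped by family on the y axis. Points are limma-voom estimates, bars are standard errors and colours mark the call. The members past the threshold run from 0.88 to 9.82 where higher and from -3.97 to -1.77 where lower, and none of the nucleotide, adenosine and adrenergic receptors drawn passed.

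Among the RGS genes, RGS1 rose the furthest and RGS4, RGS5 and RGS6 fell. RGS1, a brake on chemokine receptor signalling in lymphocytes, stood at 2824, 1249.9, 3168 and 227 CPM in SP libraries 1 to 4 and at 0.72, 2.17, 1.45 and 1.55 CPM in the NSP libraries. Every SP library was far above every NSP library, but library 4 was far below the other SP libraries. SP averaged 1867 ± 1376 CPM and NSP 1.47 ± 0.594 (SD, n = 4 each), a log2 fold change of 9.82 ± 1.50 (adjusted p = 0.00108). The summed T and NK cell markers were 1935, 4912, 7691 and 3117 CPM in the same SP libraries, against 3.23 to 8.31 CPM in NSP, where CD8B, GZMK and IL7R had no read. CCL5 made up most of that sum (1353, 3731, 6005 and 2432 CPM in SP). RGS1 did not follow the order of the sum over the 4 SP libraries. RGS1 did have the order of IL7R (26.5, 20, 51.8 and 3.41 CPM), and of no other marker found in the list. The part of these cells in the result was not tested.

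RGS14, a scaffold that joins an RGS domain to Ras and Rap binding domains, was at 12.1, 13.3, 17.2 and 16.5 CPM in SP and at 1.39, 0.739, 1.6 and 1.01 CPM in NSP. Its SP libraries lay close together and above all NSP libraries (14.8 ± 2.48 against 1.19 ± 0.384 CPM, log2 fold change 3.65 ± 0.48, adjusted p = 0.000515). RGS19, which acts on Gi alpha subunits and is found on vesicles, was at 12.1, 14, 31.3 and 28.2 CPM in SP and at 3.46, 1.85, 3.34 and 3.09 CPM in NSP. The groups did not overlap, and the log2 fold change was 2.76 ± 0.52 (adjusted p = 0.00321). RGS10, a small RGS protein of leukocytes and brain, was at 31.7, 10.6, 37.8 and 16.7 CPM in SP and at 12.6, 14.4, 4.34 and 13.3 CPM in NSP. Its groups overlapped and its log2 fold change of 1.08 ± 0.52 did not pass the threshold (adjusted p = 0.145).

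RGS4, which acts on Gi and Gq, was at 0.978, 5.79, 10.6 and 3.9 CPM in SP and at 31.9, 27.4, 23 and 15.8 CPM in NSP. All NSP libraries were above all SP libraries (5.31 ± 4.04 against 24.5 ± 6.86 CPM, log2 fold change -2.59 ± 0.60, adjusted p = 0.00925). RGS6, which works as a complex with the G protein subunit GNB5, was at 4.08, 0.517, 0.807 and 1.6 CPM in SP and at 16.8, 8.35, 14.6 and 6.09 CPM in NSP. These groups were also separate, with a log2 fold change of -3.03 ± 0.72 (adjusted p = 0.0102). RGS5, known as a gene of pericytes and smooth muscle, was at 0.598, 0.0517, 0 and 0 CPM in SP and at 1.39, 1.29, 2.64 and 0.531 CPM in NSP. It was near the detection limit in both groups, which overlapped at SP library 1, and its log2 fold change was -3.97 ± 1.13 (adjusted p = 0.0226). That call was lost without SP library 2 (adjusted p = 0.0586), 3 (0.0809) or 4 (0.0564) or NSP library 2 (0.0528). RGS5 went the other way from the summed stromal and mural markers (215 to 390.0 CPM in SP, 41.3 to 55.6 CPM in NSP). That sum is mostly DCN, COL1A1 and COL1A2 and says little of mural cells. Of the mural markers, PDGFRB was low but higher in SP (3.16 ± 1.58 against 0.102 ± 0.174 CPM, adjusted p = 0.00357). ACTA2 overlapped between groups and did not pass (4.45 ± 1.56 against 1.72 ± 1.95 CPM, adjusted p = 0.0985).

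RGS2, a Gq-directed RGS protein that is induced quickly by many stimuli and is given by library outside the naming rule, was at 119.6, 79.4, 157 and 44.7 CPM in SP and at 110.3, 82.3, 78.1 and 81.1 CPM in NSP. The NSP libraries fell within the range of the SP libraries, and the log2 fold change of 0.06 ± 0.36 was smaller than its error (adjusted p = 0.909). Its sign turned with median-ratio (-0.05) and upper-quartile scaling (-0.12), which move the median of all tested genes by -0.12 and -0.18. RGS9, the RGS protein of photoreceptors, had a log2 fold change of -3.95 ± 1.40 from 2 SP and 4 NSP libraries with reads, and did not pass (adjusted p = 0.054).

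**Figure D2:**
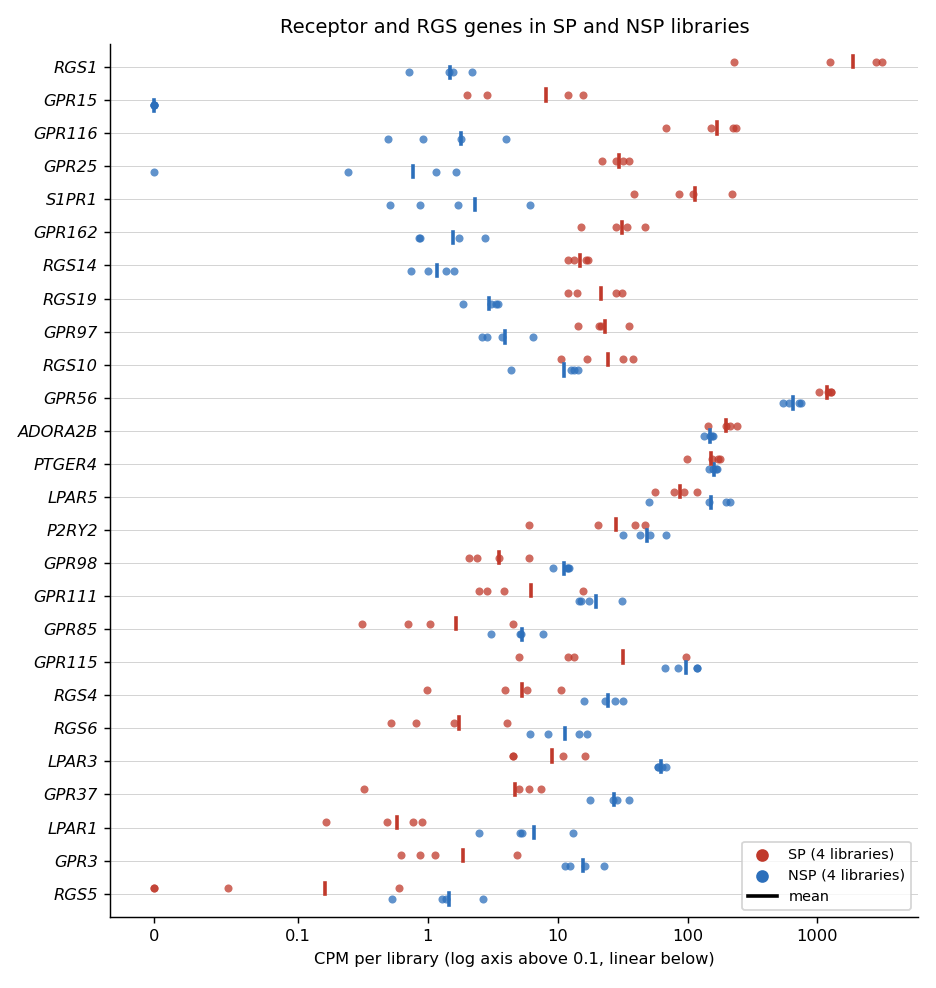
CPM of each SP and NSP library (x axis, log scale above 0.1 and linear below) for the members whose values are given by library (y axis), with bars at the group means. RGS1 spans 227 to 3168 CPM over the SP libraries and 0.72 to 2.17 CPM over the NSP libraries, while the SP and NSP points of PTGER4 lie over each other.

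Among the lysophospholipid receptors, 3 of 5 tested members passed the threshold, where 30.7% of all tested genes did. S1PR1, which binds sphingosine 1-phosphate and serves lymphocyte egress and the endothelial barrier, was higher in SP, while LPAR1 and LPAR3, which bind lysophosphatidate, were lower. S1PR1 was at 38.5, 86.6, 109.8 and 219 CPM in SP and at 1.71, 0.508, 6.14 and 0.87 CPM in NSP. The lowest SP library was above the highest NSP library (113 ± 76.2 against 2.31 ± 2.6 CPM, log2 fold change 5.98 ± 1.01, adjusted p = 0.00178). The summed endothelial markers were 1124, 3942, 4405 and 10962 CPM in the same SP libraries and 8.93 to 15.4 CPM in NSP, so the 4 SP libraries fall in the same order by S1PR1 and by that sum. VWF made up most of the sum (582, 2275, 2538 and 7544 CPM) and has this order, as do PECAM1, TEK and ESAM. CDH5, KDR, TIE1 and ROBO4 were higher in library 2 than in library 3, and EMCN was highest in library 3 (388 CPM). The part of endothelial cells in the result was not tested. S1PR3 had reads in 3 SP and 2 NSP libraries, with a log2 fold change of 0.65 ± 2.18 (adjusted p = 0.849).

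LPAR3 was at 11, 4.5, 4.52 and 16.1 CPM in SP and at 63.4, 68.7, 59 and 59.5 CPM in NSP. The NSP libraries lay within a narrow band above all SP libraries (9.03 ± 5.62 against 62.6 ± 4.48 CPM, log2 fold change -3.06 ± 0.39, adjusted p = 0.00042). LPAR1 was at 0.163, 0.775, 0.484 and 0.905 CPM in SP and at 5.13, 2.49, 13.2 and 5.31 CPM in NSP. Its groups were separate at a low level, with a log2 fold change of -3.41 ± 0.89 (adjusted p = 0.0157). LPAR5 was the most abundant member of its family by CPM, at 118, 56.1, 94.5 and 78.4 CPM in SP and at 211, 50.9, 199 and 145 CPM in NSP. NSP library 2 was below every SP library, the log2 fold change of -0.67 ± 0.44 did not pass (adjusted p = 0.281), and without that library it was -1.13 (adjusted p = 0.0283). LPAR4 had no read in any library.

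Of 9 tested genes that make, move and degrade these ligands, 5 were higher and 1 was lower, with a median log2 fold change of 1.05, beside 17.7%, 13% and 0.12 over all tested genes, and the other 3 did not pass. ENPP2, the secreted enzyme autotaxin that makes lysophosphatidate, averaged 88.2 ± 27.7 CPM in SP against 0.283 ± 0.327 in NSP (log2 fold change 9.50 ± 1.18, adjusted p = 0.000385). The lipid phosphatase PPAP2B rose by a log2 fold change of 3.18 ± 0.50 (adjusted p = 0.00122). SPNS2, the exporter of sphingosine 1-phosphate, rose by 2.40 ± 0.58 on the same scale (adjusted p = 0.0112), though its groups overlapped. SGPP2, a phosphatase of sphingosine 1-phosphate, was lower in SP, at 12.7 ± 6.54 against 86.1 ± 25.1 CPM (log2 fold change -2.88 ± 0.41, adjusted p = 0.000728).

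The prostaglandin E2 receptors PTGER2 and PTGER3 were higher in SP, and PTGER4, the most abundant of the 3, did not differ beyond its spread. PTGER4, which couples to Gs, was at 153, 179, 173 and 98.3 CPM in SP and at 169, 158, 147 and 166 CPM in NSP, a log2 fold change of -0.12 ± 0.23 (adjusted p = 0.736). PTGER2, also coupled to Gs, averaged 10.6 ± 10.7 CPM in SP against 0.759 ± 0.544 in NSP (log2 fold change 4.28 ± 1.28, adjusted p = 0.0277). The call on PTGER2 was lost without NSP library 1, 2, 3 or 4 (adjusted p = 0.0681, 0.0557, 0.0514 and 0.0511). PTGER3, which couples to Gi, had 1.68 ± 0.767 against 0.126 ± 0.134 CPM (log2 fold change 3.88 ± 1.00, adjusted p = 0.0145). Of 6 tested genes of prostaglandin metabolism, 3 were higher and none lower, with a median of 1.38, against 17.7% higher and 13% lower of all tested genes. PTGS2, the inducible cyclooxygenase, was at 451, 737, 2071 and 2007 CPM in SP and at 461, 322, 309 and 251 CPM in NSP. SP library 1 was within the NSP range, and the log2 fold change of 1.73 ± 0.47 (adjusted p = 0.0179) lost its call without SP library 4 (0.0536) or NSP library 4 (0.0535). SLCO2A1, a prostaglandin transporter, rose by 3.79 ± 1.03 (adjusted p = 0.0187), a call lost without NSP library 1 (0.0597) or 2 (0.05 after rounding, just above the threshold). PLA2G4A, the phospholipase that frees arachidonate, rose by 1.03 ± 0.35 (adjusted p = 0.0446), a call lost in 9 of the 14 alternative fits, 6 of them without 1 library (SP 3 or 4 or any NSP library, adjusted p up to 0.123).

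Among the receptors for adrenaline, adenosine and nucleotides, none of the 7 tested passed the threshold, where 30.7% of all tested genes did. ADORA2B, a Gs-coupled adenosine receptor, was at 239.9, 199, 143 and 213 CPM in SP and at 149, 153, 156 and 133 CPM in NSP. SP library 3 was inside the NSP range, and the log2 fold change was 0.40 ± 0.22 (adjusted p = 0.187). P2RY2, a Gq-coupled receptor for ATP and UTP, was at 39.5, 47.1, 5.97 and 20.5 CPM in SP and at 68.4, 43.3, 31.8 and 51.6 CPM in NSP, and its groups overlapped (log2 fold change -1.10 ± 0.55, adjusted p = 0.159). P2RY1, the ADP receptor, did not pass at -0.81 ± 0.32 on the log2 scale (adjusted p = 0.0792), but passed with median-ratio (0.0444) and upper-quartile scaling (0.0349).

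Among 13 tested genes that handle extracellular nucleotides and adenosine, 5 were higher and 3 lower, with a median of 0.54, where 17.7% of all tested genes were higher and 13% lower. ENTPD1, the surface enzyme CD39 that degrades ATP and ADP, was at 62.2 ± 27.8 CPM in SP and had reads in 1 NSP library only (log2 fold change 10.41 ± 1.42, adjusted p = 0.000593). P2RX5, an ATP-gated channel, and ENPP3, an ectonucleotidase, rose by 6.60 ± 1.01 and 2.95 ± 0.42 (adjusted p = 0.0011 and 0.000723). ENPP1, another ectonucleotidase, fell to a log2 fold change of -4.16 ± 1.07 (adjusted p = 0.0141). ADK, the adenosine kinase, was lower at 12.2 ± 4.13 against 37.7 ± 8.78 CPM (log2 fold change -1.64 ± 0.33, adjusted p = 0.00417), and so was ENTPD5 (-2.07 ± 0.36, adjusted p = 0.00191).

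Adhesion receptors carry a long extracellular region that is cut by the receptor itself in many members, and they are listed here under their older GPR names. Of 11 tested, 5 were higher (among them GPR116, GPR97, GPR56 and GPR126) and 3 were lower (GPR98, GPR111 and GPR115), beside 17.7% higher and 13% lower among all tested genes. Their median log2 fold change was nevertheless negative, at -1.15, beside 0.12 over all tested genes. GPR116 (now ADGRF5), known from endothelium and from lung surfactant control, was at 67.8, 150.2, 224 and 237 CPM in SP and at 0.495, 0.923, 1.8 and 4.01 CPM in NSP. Every SP library was above every NSP library (169.6 ± 77.8 against 1.81 ± 1.57 CPM, log2 fold change 6.81 ± 0.88, adjusted p = 0.000468). The 4 SP libraries again fall in the order of the summed endothelial markers, which not every marker in that sum shares. GPR97 (ADGRG3), a granulocyte gene, was at 21.5, 20.7, 35.2 and 14.4 CPM in SP and at 6.48, 3.74, 2.59 and 2.85 CPM in NSP, without overlap (log2 fold change 2.57 ± 0.46, adjusted p = 0.00231).

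GPR56 (ADGRG1), a collagen-binding receptor of neural progenitors and cytotoxic lymphocytes, was abundant in both groups. It was at 1036, 1202, 1264 and 1280.5 CPM in SP and at 746, 599, 544 and 721 CPM in NSP. The SP libraries varied little and lay above all NSP libraries (1196 ± 112 against 652 ± 96.7 CPM), the smallest rise among the called members (log2 fold change 0.88 ± 0.21, adjusted p = 0.00947). GPR126 (ADGRG6), needed for myelination by Schwann cells, averaged 51.1 ± 9.81 CPM in SP against 25.5 ± 7.98 in NSP and rose (log2 fold change 1.07 ± 0.31, adjusted p = 0.0244). Its call was lost without SP library 3 (adjusted p = 0.0642) or NSP library 1 (0.113) or 4 (0.0508), and without NSP library 1 the log2 fold change was 0.64.

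GPR115 (ADGRF4), a receptor of surface epithelia, was at 97.8, 13.3, 5.05 and 11.9 CPM in SP and at 118, 66.9, 118 and 84.7 CPM in NSP. SP library 1 was inside the NSP range and the other SP libraries were far below it (log2 fold change -2.48 ± 0.66, adjusted p = 0.0169), and the call was lost without SP library 3 (0.0548). GPR111 (ADGRF2) was at 15.7, 2.84, 2.47 and 3.83 CPM in SP and at 31.2, 15, 17.5 and 14.5 CPM in NSP. It had the same high SP library 1 (log2 fold change -2.03 ± 0.57, adjusted p = 0.0211), and its call was lost without SP library 2 (0.0643) or 3 (0.0673). The summed epithelial markers were 9025, 4914, 2802 and 8732 CPM in SP libraries 1 to 4. Library 4 was thus close to library 1 in that sum, but not in GPR115 or GPR111. Markers within the sum also differed, with KRT12 highest in library 1 (3829 CPM, 644 in library 4) and KRT15 highest in library 4 (2035 CPM, 155 in library 1). The part of epithelial cells in the result was not tested. GPR98 (ADGRV1), a very large receptor of hair cells and photoreceptors, was at 6.03, 3.51, 2.37 and 2.09 CPM in SP and at 11.7, 9.14, 12 and 12.2 CPM in NSP. All SP libraries were below all NSP libraries (log2 fold change -1.77 ± 0.43, adjusted p = 0.0112). GPR110, GPR125 and GPR64 had log2 fold changes of -1.15 ± 0.69, -1.41 ± 0.49 and -1.45 ± 0.53 and did not pass (adjusted p = 0.233, 0.0519 and 0.0623).

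**Figure D3:**
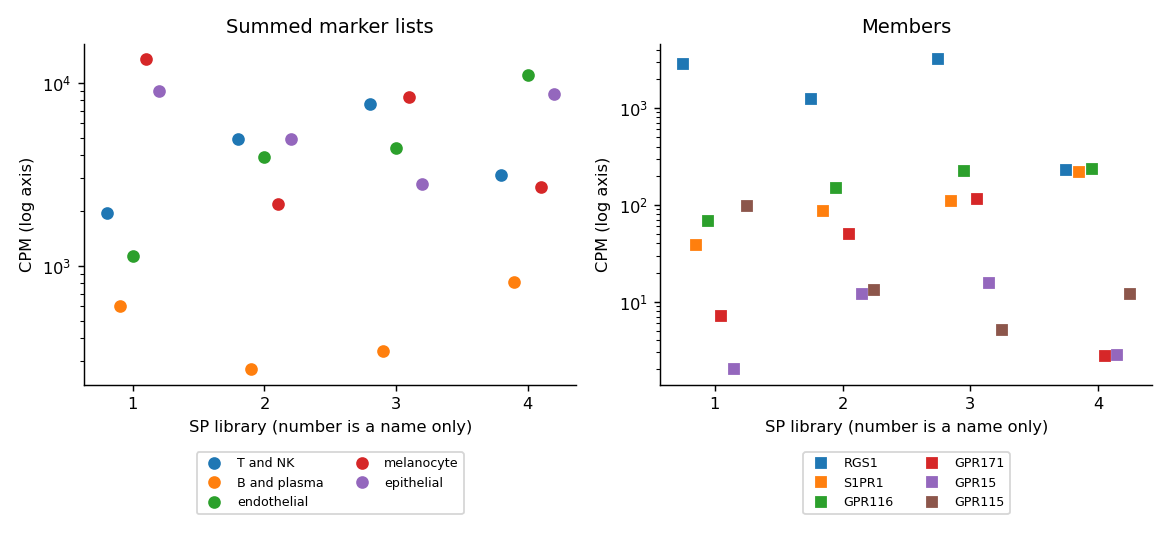
CPM on a log axis in each of the 4 SP libraries (x axis) for the summed cell type markers (left) and for members (right). S1PR1 and GPR116 fall in the order of the endothelial sum over the 4 libraries, which is mostly VWF and is not the order of every endothelial marker. GPR15 falls in the order of the T and NK cell sum, which is mostly CCL5, and of the stromal and mural sum, which is not drawn. GPR115 is highest in library 1 at 97.8 CPM.

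Among the other 21 tested GPR members, 8 (38.1%) were higher and 4 (19%) lower in SP, beside 17.7% and 13% of all tested genes, so the share that was lower is not far from that of all genes. Those that were higher and near 0 in NSP include GPR15 and GPR25. GPR15, a homing receptor of T cells, was at 2.01, 11.9, 15.6 and 2.85 CPM in SP and was without reads in the 4 NSP libraries, which allows up to 0.0354 CPM there. Against 3 reads over the NSP group it was at least 239-fold higher (adjusted p = 0.0019). The 4 SP libraries fall in the order of the summed T and NK cell markers, which is mostly CCL5 and is not the order of every marker in it. They also fall in the order of the summed stromal and mural markers (215, 251, 390.0 and 229 CPM). The part of either cell type in the result was not tested. GPR171, a receptor of lymphoid cells, is given by library although it is outside the naming rule and was chosen after its values were seen. It was at 7.07, 50.5, 116 and 2.72 CPM in SP with no read in NSP, at least 1318-fold higher (adjusted p = 0.0219), and the call was lost without NSP library 1, 2, 3 or 4 (adjusted p = 0.0821, 0.0699, 0.072 and 0.0643). GPR25, a receptor also found on T cells, was at 28.2, 22, 31.7 and 35.7 CPM in SP and at 1.66, 1.15, 0 and 0.242 CPM in NSP. In contrast to GPR15 and GPR171, its SP libraries were close to each other (29.4 ± 5.81 against 0.765 ± 0.779 CPM, log2 fold change 6.36 ± 1.00, adjusted p = 0.00122).

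GPR162, a receptor with no accepted ligand, was at 15.2, 27.9, 47 and 34 CPM in SP and at 0.855, 2.77, 1.75 and 0.87 CPM in NSP. The groups were well apart (log2 fold change 4.35 ± 0.67, adjusted p = 0.00113). GPR157, GPR19 and GPR176 rose by log2 fold changes of 4.10 ± 1.06, 2.59 ± 0.78 and 2.55 ± 0.73 (adjusted p = 0.0145, 0.0282 and 0.0232). The call on GPR19 was lost in 6 of the 8 fits without 1 library (SP library 2 or 3 or any NSP library, adjusted p up to 0.1). The call on GPR176 was lost without NSP library 1 (0.0663), 2 (0.0568) or 4 (0.0701).

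GPR3, GPR37 and GPR85 were among those lower in SP. GPR3, a receptor that activates Gs without added ligand, was at 0.87, 0.62, 1.13 and 4.87 CPM in SP and at 16.2, 22.7, 12.4 and 11.4 CPM in NSP. Its groups were separate, with SP library 4 above the other SP libraries (log2 fold change -3.57 ± 0.64, adjusted p = 0.00245). GPR37, a receptor related to those of endothelin and abundant in myelinating glia, was at 7.5, 5.01, 0.323 and 6.06 CPM in SP and at 28.7, 26.8, 17.7 and 35.5 CPM in NSP (log2 fold change -3.18 ± 0.76, adjusted p = 0.0104). GPR85, a brain receptor with no known ligand, was at 4.51, 0.31, 0.699 and 1.04 CPM in SP and at 7.74, 3.09, 5.09 and 5.22 CPM in NSP. SP library 1 was inside the NSP range, and the log2 fold change of -2.29 ± 0.76 (adjusted p = 0.0419) lost its call without SP library 2 (0.125) or 3 (0.106) or NSP library 1 (0.0763), 3 (0.0696) or 4 (0.0824). The remaining 9 tested GPR members did not pass, among them GPR137B (0.88 ± 0.30, adjusted p = 0.0506), GPR155 (1.29 ± 0.48, adjusted p = 0.0652) and GPR63 (-2.98 ± 1.06, adjusted p = 0.0548).

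Below the filter were 53 members. No read in any library was found for 16 of them, among which are ADRA1D, GPR101, GPR119, GPR139, GPR148, GPR17, GPR22, GPR33, GPR52, GPR6, GPR62, GPR82, LPAR4, RGS13 and RGS21. Of the 37 with reads, 13 had them in SP only, 5 in NSP only and 19 in both, and the highest total was 342 reads, for RGS22. GPR34, a receptor of microglia and macrophages, had 4, 23, 84 and 10 reads in SP and none in NSP, at least 48.3-fold higher against 3 reads over the group. RGS18, an RGS gene of platelets and myeloid cells, had 0, 40, 80 and 8 reads in SP and none in NSP, at least 51.1-fold higher. P2RY4, a receptor for UTP, had 60, 62, 0 and 8 reads in SP and none in NSP, at least 51.9-fold higher. These 3 genes, unread in NSP, differed widely among the SP libraries. P2RY14, the receptor for UDP-sugars, had 17, 8, 18 and 2 reads in SP and 2, 0, 0 and 1 in NSP, a ratio of 18 (exact 95% counting interval 5.76 to 90.3). P2RY12, P2RY13 and GPR183, all receptors of blood-derived cells, had 13, 1 and 4 reads in all SP libraries together and none in NSP. In the other direction, ADRA1A, an alpha-1 adrenergic receptor, had no read in SP and 0, 13, 17 and 12 in NSP, and RGS7, a neuronal RGS gene, had 5, 0, 1 and 0 in SP and 6, 8, 39 and 14 in NSP. Fitted with no filter beyond 1 read, 8 of the 53 passed the threshold, GPR34, P2RY4, P2RY14, RGS18 and RGS22 as higher and ADRA1A, GPR135 and RGS7 as lower.

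Levels can be set between genes only per exon length, in CPM per kilobase. On this scale and among the members named here, RGS1 had the highest mean in SP, at 1512 ± 1114, followed by GPR56 at 363 ± 33.9, ADORA2B at 105 ± 21.7 and RGS2 at 74.5 ± 36.1. The SP ranges of RGS1 and GPR56 overlapped, as did those of ADORA2B and RGS2, so these neighbours do not differ beyond their spread, while all SP libraries of GPR56 were above those of ADORA2B. In NSP, GPR56 stood at 198 ± 29.4 CPM per kilobase, then ADORA2B at 78.5 ± 5.5, GPR110 at 68.6 ± 17.4, RGS2 at 65.4 ± 11.2 and PTGER4 at 47.9 ± 2.97. The NSP range of GPR56 stood apart from those of the lower members. ADORA2B overlapped GPR110 and GPR110 overlapped RGS2, while all NSP libraries of RGS2 were above those of PTGER4. GPR56, ADORA2B, RGS2, PTGER4, GPR110 and GPR89B were among the 10 highest in both groups. RGS1, S1PR1 and RGS19 were among the 10 highest in SP and not in NSP, and RGS4 and LPAR5 in NSP and not in SP, as a description of ranks with no test of the difference between lists.

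**Figure D4:**
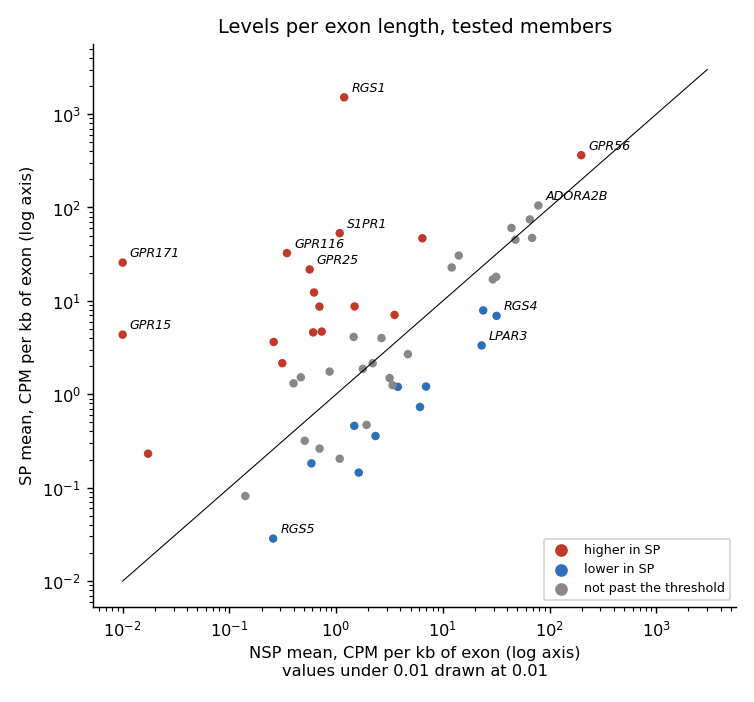
Mean SP level against mean NSP level, both in CPM per kilobase of exon on log axes, for the tested members named here, with the line of equal levels and colours for the call. GPR56 lies high on both axes, while RGS1 reaches 1512 in SP only and GPR15 and GPR171, with no NSP read, are drawn at the lower limit of 0.01.

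By the gene order of RefSeq (assembly mOryCun1.1, used for names and order only), 104 members were matched and 21 of them stand beside another member, in 7 clusters. GPR56 and GPR97 share a cluster and were both higher in SP, and the neighbours RGS5 and RGS4 were both lower. RGS18, RGS21, RGS1, RGS13 and RGS2 form another cluster, with 128, 0, 138320, 0 and 7294 reads in SP and 0, 0, 124, 0 and 7477 reads in NSP. RGS1 alone among these was called, beside RGS2 at nearly equal totals. P2RY12, P2RY13, P2RY14 and GPR171 share a cluster in which GPR171 was higher and these P2RY genes were below the filter. GPR116 was higher and its neighbour GPR110 was not called. Neither labels nor headers say whether counting used strand, and 38 members overlap another gene in RefSeq, so reads of overlapping genes may not be told apart. GPR171 overlaps MED12L (log2 fold change 1.84 ± 0.80, adjusted p = 0.108), GPR15 overlaps CPOX (0.31 ± 0.54, adjusted p = 0.693), and GPR19 overlaps CREBL2, which was lower in SP (-2.34 ± 0.46, adjusted p = 0.00394). Other called members also overlap a gene, among them PTGER3 and GPR98 (protein-coding) and RGS1, RGS6, GPR85 and GPR176 (non-coding RNAs or pseudogenes). The levels of those overlapping genes were not examined.

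Genes that carry the receptors' signals and genes that handle their ligands were covered by 7 lists of 151 genes, of which 93 were found and 87 tested. The lists of lysophospholipid, prostaglandin and nucleotide handling, described above, hold 9, 6 and 13 of those tested, so the counts are not of signal carriers alone. Higher in SP were 35 of the 87, or 40.2%, and lower were 7, or 8.05%, with a median log2 fold change of 0.69, beside 17.7%, 13% and 0.12 over all tested genes. A listed gene near 0 in NSP, such as ENTPD1 or PDE3B, passed the filter only through its SP libraries and had to differ. The same limit holds in the other direction for any listed gene near 0 in SP. The lists were also chosen with earlier results of these data known, so the counts of each list describe its tested genes only. The T and NK cell, endothelial and other marker lists were higher in the same libraries, and their part in these counts was not tested. Among 17 tested G protein subunits 7 were higher and 1 was lower, with a median of 0.89. GNG2, a gamma subunit abundant in leukocytes, averaged 99.1 ± 30 CPM in SP against 0.485 ± 0.355 in NSP (log2 fold change 8.35 ± 1.00, adjusted p = 0.000345). GNAI2, a Gi alpha subunit, was at 552 ± 167 against 115 ± 53.2 CPM (2.37 ± 0.41, adjusted p = 0.0019), and GNG11 rose by 2.27 ± 0.30 (adjusted p = 0.000533). GNA14, a Gq class subunit, fell to -1.64 ± 0.56 (adjusted p = 0.0469), a call lost without SP library 2, 3 or 4 or NSP library 1, 2 or 4, with adjusted p up to 0.101.

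Among 7 tested receptor kinases and arrestins, 4 were higher and none lower, with a median of 1.30. Of all tested genes 17.7% were higher and 13% lower, and these shares also stand beside the other counts of this paragraph. ARRB2, beta-arrestin 2, averaged 139 ± 35.8 CPM in SP against 14.8 ± 1.42 in NSP (log2 fold change 3.19 ± 0.30, adjusted p = 0.000142). ADRBK1, the receptor kinase GRK2, rose by 1.64 ± 0.29 (adjusted p = 0.00237), and TXNIP, an alpha-arrestin of glucose uptake, by 2.38 ± 0.29 (adjusted p = 0.000346). Of 18 tested cyclic AMP genes, 6 were higher and 2 lower, with a median of 0.87. PDE3B, a phosphodiesterase, and RAPGEF3, the cyclic AMP sensor Epac, rose by 8.29 ± 1.49 and 4.82 ± 0.92 (adjusted p = 0.00245 and 0.00325). RAPGEF3 was highest in SP library 4, at 241 CPM, the library with the highest endothelial sum. ADCY3, an adenylyl cyclase, and PDE7A fell to -1.78 ± 0.55 and -1.64 ± 0.53 (adjusted p = 0.0315 and 0.0391), in each case a call that leaving out 1 library could end. For ADCY3 this was SP library 1, 2 or 3 or NSP library 2 or 4, and for PDE7A SP library 2 or 3 or NSP library 1, 2 or 3, with adjusted p up to 0.0763 and 0.0852. Of 17 tested Gq and G12 effectors, 5 were higher and none lower, with a median of 0.12, equal to that of all tested genes. PRKCB, a protein kinase C of lymphocytes, rose by 7.17 ± 1.26, and the phospholipases PLCB4 and PLCB2 by 3.33 ± 0.42 and 2.66 ± 0.37 (adjusted p = 0.0022, 0.000413 and 0.000637).

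**Figure D5:**
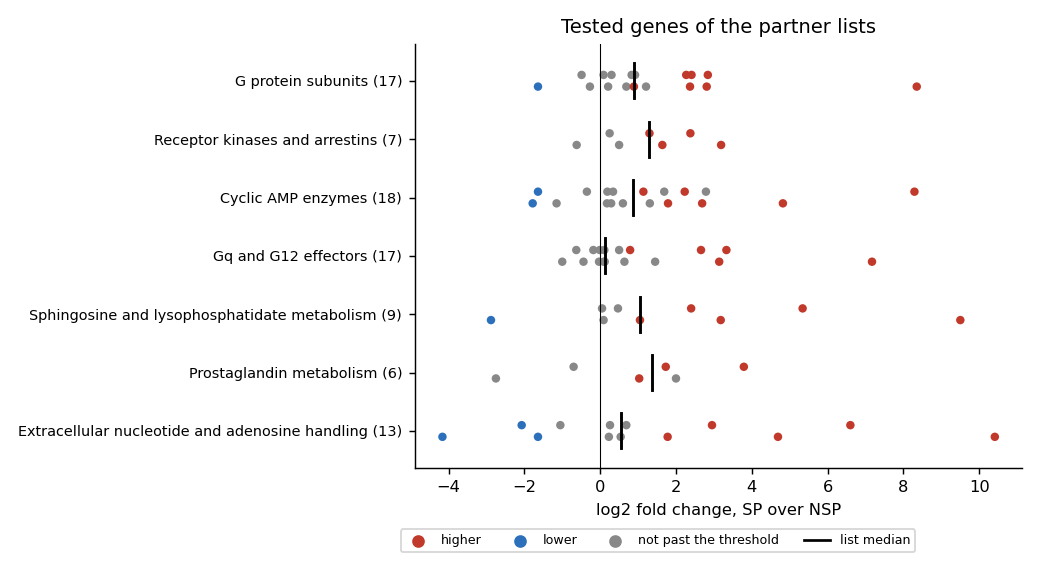
Log2 fold change, SP over NSP (x axis), of each tested gene in the 7 lists of signal carriers and ligand handling genes (y axis, number tested in brackets), coloured by call, with a bar at each list's median. The medians lie between 0.12 for the Gq and G12 effectors and 1.38 for prostaglandin metabolism, and called genes that are lower number 7 in all.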

How the data were processed

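Total RNA of 4 samples per group was read on an Ion Proton sequencer, per the labels. The aligner, build, annotation and strand setting are not stated in the labels or headers. The authors' deposited data are 1 fixed-width text table of 20922 gene entries with 163 fields of 8 characters in 6 stacked blocks. Neighbouring values touch, so it was read by character position. The field used per library holds whole numbers and was taken as its exon read count, and group means computed from it differed from the deposited ones by 0.05 at most. The other 142 per-library fields were not used. Columns name the group and no sample.

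Libraries were scaled by TMM (trims of 30% and 5%). A gene was kept if its CPM reached 0.508, which is 10 reads of the median library, in 4 libraries and it had 15 reads in total, and was tested with limma-voom (limma 3.58.1, R 4.3.3; offset 0.5; group only), two-sided. The procedure was tested on simulated counts. Python 3.11.15, pandas 2.3.3, NumPy 2.4.6, SciPy 1.17.1 and matplotlib 3.10.9 were used for the rest. Median-ratio and upper-quartile factors, 2 other filters, limma-trend, quality weights and leaving out each library were the alternatives.

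The members and all gene lists were chosen with earlier results of these data known. Values by library are given for the 12 members with the smallest p in each direction and the most abundant member of each family. For each list, up to 3 genes per direction with the smallest p are named. A few members are left out of the text and figures, and every test and count of members still includes them, apart from the screen for libraries far from the rest.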

Additional observations from a re-analysis of the deposited data

Results flagged for a closer look

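In 104 groups of 4 libraries, SP and NSP of the tested members named here, 8 had 1 library farther from the rest than Dixon's 95% critical value allows, and chance gives about 1 in 20. In SP library 1, GPR111 (15.7 CPM), GPR115 (97.8 CPM) and RGS5 (0.598 CPM) were high. PTGER2 was high in SP library 3, at 26.5 CPM, and GPR3 in SP library 4, at 4.87 CPM. GPR98 was low in NSP library 2, at 9.14 CPM. NSP library 1 was high for ADRB1, at 14.2 CPM, and for RGS2, at 110.3 CPM.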

How the results depend on the processing

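Of the 31 members past the threshold, 22 kept the call and direction in all 14 alternative fits, and 9 lost the call without at least 1 library. Of the 25 others, 11 were called in some fit (among them GPR125, GPR137B, GPR155, GPR160, GPR63, GPR64, GPR89B, LPAR5, P2RY1 and RGS9) and 7 changed sign in some fit. The count of called members was 36 with median-ratio and with upper-quartile factors, 40 with no filter beyond 1 read, 31 with a filter of 10 reads in 4 libraries, 34 with limma-trend and 38 with quality weights, and between 25 and 35 without 1 library. The lower members numbered between 8 and 17 and the higher ones between 14 and 24 over these fits. Over all genes, 57.7% of calls were higher in SP, and 46.9% with upper-quartile factors (1437 higher, 1628 lower).

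Sign changes were these. ADRB1 (0.08) was -0.05 with median-ratio factors, -0.11 with upper-quartile factors, -0.46 with quality weights, and -0.46, -0.11, -0.15, -0.28, -0.12 and -0.04 without SP library 1, 3 or 4 or NSP library 2, 3 or 4; over all fits without 1 library it ran from -0.46 to 0.89. RGS2 was -0.05 and -0.12 with these factors, and -0.07 and -0.20 without SP library 1 or 3, within -0.20 to 0.23 over the fits without 1 library. S1PR3 was -0.14 with limma-trend, -1.85 with quality weights, and -0.33, -0.68 and -0.57 without SP library 1 or NSP library 2 or 3, up to 2.21 without SP library 2. Without SP library 1, GPR161 was 0.04 and GPR84 0.63, where the lowest values without 1 library were -0.88 and -2.37. GPR179 was 0.18 with quality weights, and P2RY6 was -0.30 without NSP library 3 and up to 2.89 without SP library 1. The cause was not tested.

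In the partner lists, the higher genes of prostaglandin metabolism fell from 3 to 1 without NSP library 1, 2 or 4, and those of sphingosine and lysophosphatidate metabolism from 5 to 3 without NSP library 3. No paired analysis was possible because the columns carry no replicate number, although the sample titles number both groups 1 to 4, and column order was not used to pair libraries. The count tests of edgeR and DESeq2 were listed as alternatives and not run, although the recovered values are counts of the kind they take. At this depth 53 members were below the filter, and 8 of them passed the threshold when it was dropped.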
